A study of Arabidopsis thaliana with 12 samples.

Results

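The genes described here are 5 nuclear genes of the electron transport chain beyond photosystem II: PSAN (AT5G64040), NdhS (AT4G23890), NdhN (AT5G58260), PIFI (AT3G15840) and CCB3 (AT5G36120). They were chosen by annotation, as these 5 loci among the 689 loci that a probe names alone, and each has 1 probe. Arabidopsis plants of the wild type, Landsberg ecotype, had received 500 µM bromoxynil (6 arrays, titled pBro) or water (6 arrays, titled H2O). Both groups had 12 h of darkness and were then returned to light for 30 min. Bromoxynil is a nitrile herbicide that blocks electron flow at photosystem II. The labels give no tissue, age or number of plants, nor whether each array had its own plants. The p-values therefore measure only how far these arrays differ, which may be technical.

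Photosystem I takes electrons from plastocyanin in the thylakoid lumen and passes them to ferredoxin in the stroma. The cytochrome b6f complex stands before it in the chain and hands electrons from plastoquinol to plastocyanin. The chloroplast NDH complex, which resembles a respiratory dehydrogenase, returns electrons from ferredoxin to plastoquinone and so supports cyclic flow around photosystem I and the reduction of plastoquinone in the dark. Bromoxynil acts upstream of all of these complexes.

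With bromoxynil, NdhS was higher on every array than with water, and it was the 1 member of the 5 that passed the test on normalised values. It did not pass with array medians centred or with consecutive array numbers averaged. NdhN was higher with bromoxynil at each of the 6 array numbers, but its groups overlapped. It passed only with the array number in the fit, and its log2 change was -0.05 once adjusted for probe place. PSAN was bright on all 12 arrays and its groups overlapped. PIFI was among the dimmest 25% of probes, and CCB3 was listed at 0 on 9 of 12 arrays. Of all 3439 probes, 54.4% passed the same test in either direction and 24.5% passed it as higher with bromoxynil, so 1 called member of 5 is not above the background.

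The deposited values are intensities relative to the brightest feature, which has the value 100 on every array. Array medians were 0.624 to 0.654 with bromoxynil and 0.443 to 0.491 with water, and 3.87% to 4.57% of values were 0 with bromoxynil against 3.14% to 3.81% with water. Log2 changes below are bromoxynil minus water on quantile-normalised values, tested with limma over all probes with Benjamini-Hochberg adjustment at 0.05. The median change of all probes on that scale was -0.04. On the deposited scale the array medians themselves were 0.46 (log2) higher with bromoxynil. Of 10 genes listed as markers of green tissue, 1 had a probe of its own, the antenna protein gene LHB1B2 (AT2G34420). Its mean was 7.82 ± 0.607 with bromoxynil and 17.5 ± 2.98 with water (SD, n = 6 each). Its log2 change was -0.88 (adjusted p = 8.2e-05, limma). Adjusted for probe place it was -0.49 and did not pass (adjusted p = 0.0507, limma). A further 2 probes named a green tissue marker among several genes and were not used. None of the 8 root markers or 2 guard cell markers had a probe of its own, so tissue make-up could not be checked. Fewer cells of a type and less RNA per cell cannot be told apart in these samples.

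NdhS encodes the subunit of the NDH complex that forms its docking site for ferredoxin. Its intensities with bromoxynil were 7.96, 8.11, 8.35, 8.35, 7.44 and 7.89 on arrays 1 to 6, against 2.11, 2.45, 7.19, 7.34, 5.77 and 2.15 with water. The bromoxynil arrays lay close together. The water arrays were spread, with arrays 3 and 4 just below the bromoxynil arrays, arrays 1, 2 and 6 far below them and array 5 between. The groups did not overlap on the deposited values, as for 25.9% of all probes with bromoxynil above, but the lowest bromoxynil array and the highest water array differed by little. The mean intensity was 8.02 ± 0.342 with bromoxynil and 4.50 ± 2.54 with water (SD, n = 6 each).

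**Figure D1:**
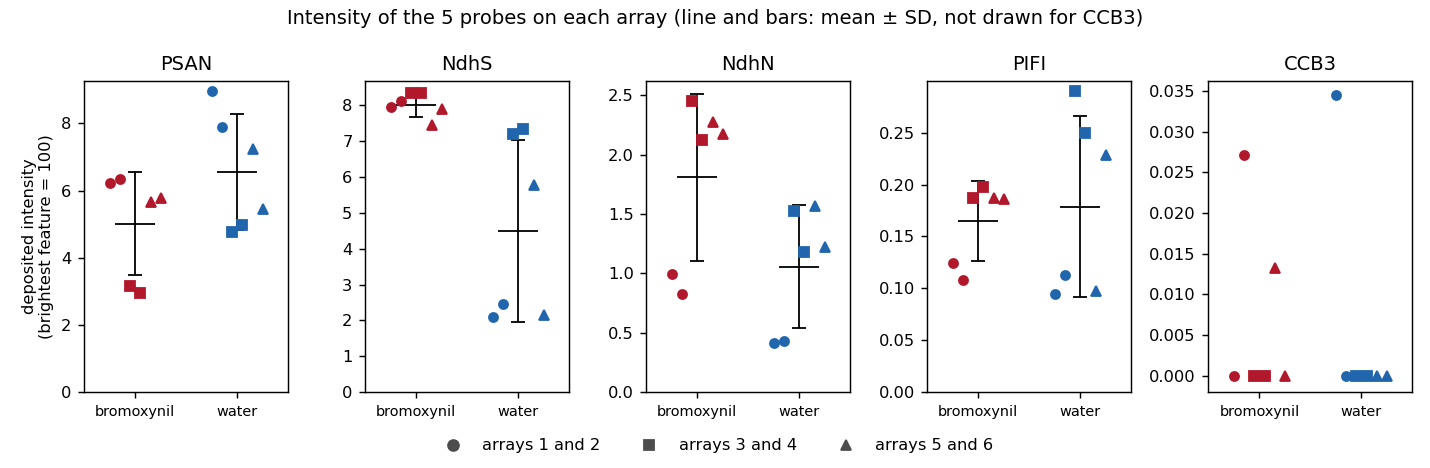
Deposited intensity (linear, brightest feature = 100) of the 5 probes on each of 6 bromoxynil and 6 water arrays, with the mean and SD of each group except for CCB3; the marker shape gives the array number. NdhS lies between 7.44 and 8.35 with bromoxynil and between 2.11 and 7.34 with water, while CCB3 is at 0 on 9 arrays.

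On normalised values NdhS rose by 1.28 ± 0.33 on the log2 scale (SE, n = 6 per group; 95% interval 0.55 to 2.0), which is 2.42-fold, with an adjusted p of 0.00632 (limma). It passed in all 12 fits that left out 1 array. With each array centred on its median the change was 0.59 and did not pass (adjusted p = 0.143, limma), on a scale on which 54.5% of all probes were called. With consecutive numbers averaged to 3 values per group it was 1.28 and did not pass (adjusted p = 0.0655, limma), and 35.8% of all probes were called in that fit.

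The size of the NdhS difference was uneven over the array numbers. Bromoxynil over water on the deposited scale was 3.78 at number 1, 3.31 at number 2 and 3.67 at number 6. It was 1.16 at number 3, 1.14 at number 4 and 1.29 at number 5. All 6 ratios were above 1, and the difference between large and small ratios came from the water arrays. The SD of the normalised log2 values of NdhS was 0.11 with bromoxynil and 0.85 with water. For the 2579 probes above the dimmest 25%, the median SD was 0.21 with bromoxynil and 0.30 with water. A ratio of the water SD to the bromoxynil SD at least as large as that of NdhS was found for 1.32% of these probes, given as a description.

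**Figure D2:**
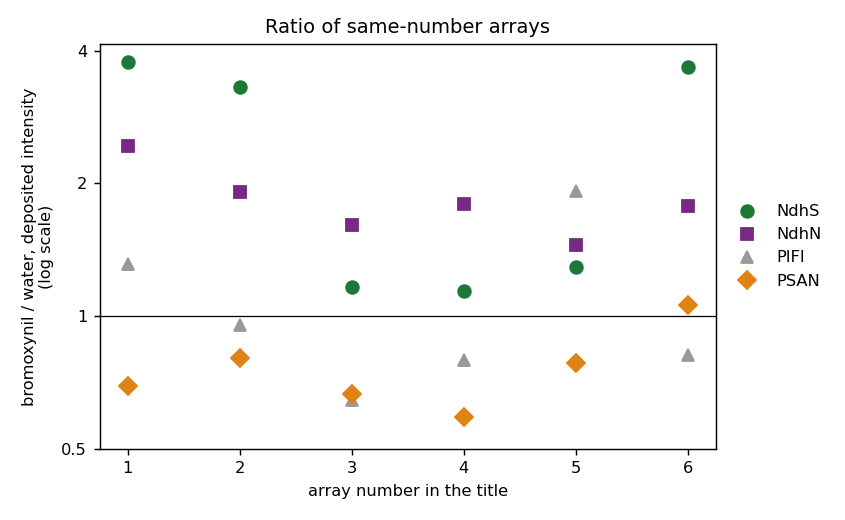
Ratio of the bromoxynil to the water intensity for arrays of the same number, as deposited, on a log axis with 1 marked. NdhS and NdhN are above 1 at all 6 numbers, NdhS at 1.14 to 3.78 and NdhN at 1.45 to 2.43, whereas PSAN is below 1 at 5 of 6 numbers on this deposited scale.

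NdhN encodes a subunit of the arm of the NDH complex that faces the stroma. Its intensities with bromoxynil were 0.997, 0.828, 2.45, 2.12, 2.28 and 2.18 on arrays 1 to 6, against 0.411, 0.434, 1.52, 1.18, 1.57 and 1.23 with water. Arrays 1 and 2 were the lowest in both groups, and the bromoxynil values of these arrays lay below 4 of the 6 water values. The mean was 1.81 ± 0.706 with bromoxynil and 1.06 ± 0.515 with water (SD, n = 6 each).

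Without the array number, the log2 change of NdhN was 0.63 ± 0.43 (SE, n = 6 per group; 95% interval -0.32 to 1.58) and missed the threshold (adjusted p = 0.242, limma). At every number the bromoxynil array was higher, by 1.45-fold to 2.43-fold as deposited and by 0.42 to 0.76 on the normalised log2 scale. With the number as a replicate block the change was 0.63 ± 0.07 and passed, with an adjusted p of 0.000575 (limma), in a fit in which 59.8% of all probes were called. That SE takes the 6 numbers as independent, which the labels do not state. Arrays 1 and 2 had similar NdhN values within each group, 0.997 and 0.828 with bromoxynil and 0.411 and 0.434 with water. The probes at the same place in the repeat of probe numbers had a median log2 change of 0.46, and adjusting each array for place left NdhN at -0.05, which did not pass, with an adjusted p of 0.940 (limma).

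PSAN encodes a small subunit of photosystem I on the lumen side, where plastocyanin docks. Its intensities with bromoxynil were 6.21, 6.35, 3.17, 2.94, 5.67 and 5.77 on arrays 1 to 6, against 8.96, 7.89, 4.76, 4.98, 7.25 and 5.45 with water. Arrays 3 and 4 were the lowest of each group, whereas for NdhN arrays 1 and 2 were the lowest. The mean was 5.02 ± 1.54 with bromoxynil and 6.55 ± 1.73 with water (SD, n = 6 each), and the bromoxynil array was lower at 5 of 6 numbers as deposited. On normalised log2 values the same-number differences ran from -0.50 to 0.28 and were above 0 at 2 numbers and equal to 0 at number 5.

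On normalised values the log2 change of PSAN was -0.12 ± 0.23 (SE, n = 6 per group; 95% interval -0.63 to 0.40), with an adjusted p of 0.705 (limma). The interval runs from 0.646-fold to 1.32-fold. The call depended on the scaling: with each array centred on its median the change was -0.87 and passed (adjusted p = 0.0140, limma). On the deposited log2 values it was -0.41, with an adjusted p of 0.177 without the array number and 0.0239 with it as a replicate block (limma), where 62.1% of all probes were called. After the place adjustment it was 0.14 and did not pass, so no direction is given for PSAN.

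PIFI encodes a chloroplast protein named after the post-illumination rise in chlorophyll fluorescence, which reports on the reduction of plastoquinone in the dark through the NDH route. Its intensities with bromoxynil were 0.124, 0.108, 0.187, 0.198, 0.187 and 0.186 on arrays 1 to 6, against 0.0946, 0.113, 0.290, 0.250, 0.0973 and 0.228 with water. All bromoxynil values lay within the range of the water values. The probe ranked at 8.08% to 12.4% of the probes of its array with bromoxynil and at 6.95% to 24.5% with water, in the dimmest 25% on every array. The file holds no measure of background, so whether PIFI was above it is not known.

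The log2 change of PIFI was -0.15 ± 0.31 (SE, n = 6 per group; 95% interval -0.83 to 0.53), with an adjusted p of 0.714 (limma). The interval covers 0.563-fold to 1.45-fold, so changes within that range are not excluded by these arrays. Of the alternatives listed in the closing section, none took PIFI past the threshold.

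CCB3 encodes a factor for the covalent binding of a haem to cytochrome b6 during assembly of the cytochrome b6f complex. It was listed at 0 on 4 of 6 bromoxynil arrays and on 5 of 6 water arrays. The positive values were 0.0272 and 0.0132 on bromoxynil arrays 2 and 5, and 0.0345 on water array 1. The probe ranked at 1.58% to 4.97% of the probes of its array over the 12 arrays, so its values are at the bottom of the measured range in both groups. No fold is given for CCB3. It did not pass the test (adjusted p = 0.706, limma, each 0 replaced by that array's smallest positive value).

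**Figure D3:**
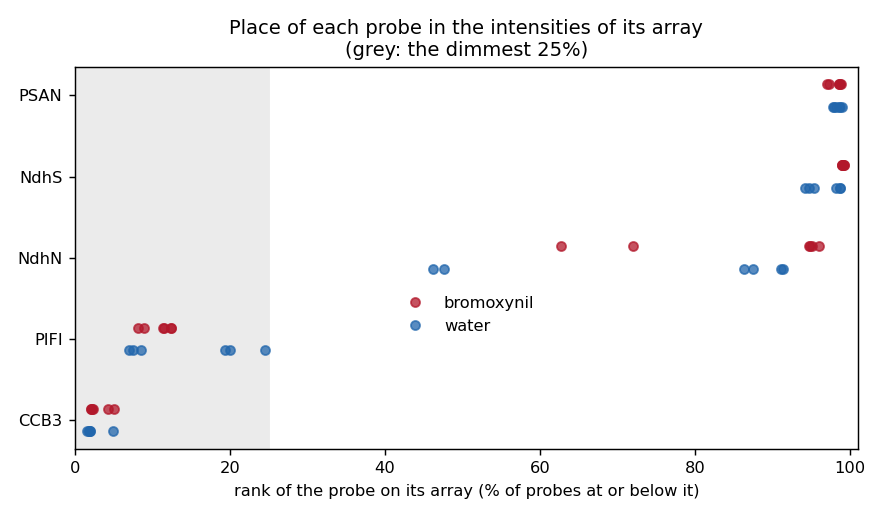
Rank of each of the 5 probes among the 3439 probes of its array, in percent of probes at or below it, for 6 bromoxynil and 6 water arrays; grey marks the dimmest 25%. PSAN and NdhS rank at 94.2% or above on all arrays, NdhN spans 46.2% to 96.0%, and PIFI and CCB3 stay inside the grey band.

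PSAN ranked at 97.0% to 98.8% with bromoxynil and at 97.8% to 99.0% with water, and NdhS at 99.0% to 99.2% with bromoxynil and at 94.2% to 98.7% with water. NdhN ranked at 62.8% to 96.0% with bromoxynil and at 46.2% to 91.4% with water, the widest range of the 5 probes. Levels of different probes are not set against each other, since probes differ in how brightly they report a transcript.

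Changes of the 3 bright members were also set against each other within each array, where any factor common to the array cancels. On deposited log2 values the change of NdhS exceeded that of PSAN by 1.46 ± 0.52 (SE, 95% interval 0.29 to 2.63). The change of NdhN exceeded that of PSAN by 1.26 ± 0.66, with an interval of -0.21 to 2.73 that includes 0. The 2 NDH subunits differed by 0.20 ± 0.39, NdhS minus NdhN, with an interval of -0.68 to 1.07 that includes 0. The within-array differences of the groups overlapped for all 3 pairs. These intervals leave out the array number. Taken between same-number arrays, an alternative chosen after seeing the data, the change of NdhN exceeded that of PSAN at 6 of 6 numbers, by 1.26 ± 0.16 (SE, 95% interval 0.84 to 1.69), which no longer includes 0. For NdhS over PSAN the interval was then 0.69 to 2.22, also with 6 of 6 numbers above 0. For NdhS minus NdhN it was -0.56 to 0.95, with 3 of 6 numbers above 0. These differences are not adjusted for place. The first intervals take all arrays as independent, and those between same-number arrays take the 6 numbers as independent, which the labels do not state. After the place adjustment, on normalised values, the separate changes were 1.63 for NdhS, -0.05 for NdhN and 0.14 for PSAN. By these estimates NdhN no longer exceeded PSAN, and NdhS lay above NdhN and PSAN. The differences were not tested after that adjustment.

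Deviations from the group means over the 12 arrays went together for NdhS and NdhN (Pearson r = 0.54) and in opposite directions for PSAN and NdhN (r = -0.71). Pairs with a dim probe gave values of like size. They were 0.56 for NdhN and PIFI, 0.60 for PSAN and CCB3, and -0.65 for PSAN and PIFI. The arrays of a number share part of their deviation over all probes, so these values describe the arrays as well as the genes.

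NdhS and PSAN lie near each other in probe number, at 77 and 85. Values varied along the probe numbers with a repeat of 288, found in a difference between water arrays (rank autocorrelation 0.28). Whether the bromoxynil minus water changes repeat at that lag was not tested. The other probes within 6 places of the same place had median changes of -0.40 around NdhS and -0.33 around PSAN. NdhS thus differed in sign from the probes around its place, and after the place adjustment its change was 1.63 ± 0.37 (SE), with an adjusted p of 0.00334 (limma), in a fit that called 47.4% of all probes. When averaging and the block were added it was still 1.63, with an adjusted p of 0.0397 (limma) and 27.6% of all probes called. For PIFI the probes at its place had a median of 0.19, and its adjusted change was -0.46 ± 0.23, which did not pass (adjusted p = 0.123, limma).

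**Figure D4:**
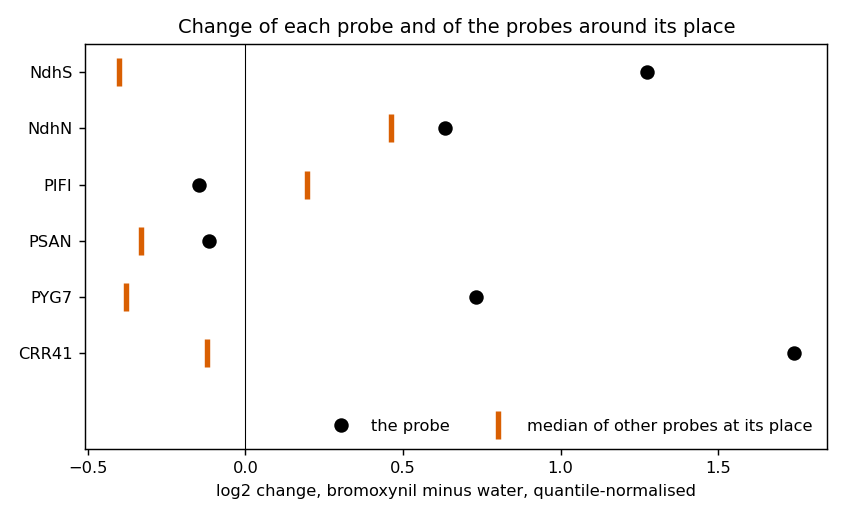
Log2 change (bromoxynil minus water, quantile-normalised) of 4 of the 5 probes and of PYG7 and CRR41, beside the median change of the other probes within 6 places of the same place in the repeat of probe numbers. NdhS, at 1.28, lies opposite in sign to its place median of -0.40, while NdhN, at 0.63, lies near its place median of 0.46.

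The other genes of these complexes came from 8 lists with 70 genes: photosystem I subunits, its antenna and its assembly, NDH subunits and NDH assembly, cytochrome b6f subunits and assembly, and the electron carriers. Of the 70 genes, 7 were measured by a probe of their own, the 5 members and 2 more. Of these 7, 3 rose (NdhS, PYG7 and CRR41) and 4 did not pass the test, where 24.5% of all probes were called higher and 54.4% in either direction, so nothing particular to these lists is read from the count. Their median log2 change was 0.70, against -0.04 over all probes, and with CCB3 mostly at 0 that median rests on a value that cannot be read as a change. The lists of the photosystem I antenna, the cytochrome b6f subunits and the electron carriers had no gene with a probe of its own. For the cytochrome b6f subunits and for the electron carriers, 1 probe each named a listed gene among several genes and was not used.

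CRR41 (AT1G51100), a chloroplast factor for the assembly of the stromal arm of the NDH complex that contains NdhN, rose. Its intensities with bromoxynil were 1.31, 1.32, 1.38, 1.40, 1.19 and 1.04 on arrays 1 to 6, against 0.317, 0.340, 0.356, 0.376, 0.208 and 0.246 with water. All bromoxynil arrays lay above all water arrays, as for 25.9% of all probes on deposited and 15.6% on normalised values. The change was 1.74 ± 0.15 on the log2 scale (SE, n = 6 per group; adjusted p = 2.8e-06, limma), and it passed in every alternative, at 1.60 to 2.08.

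PYG7 (AT1G22700), a thylakoid protein needed to assemble photosystem I, rose by 0.73 ± 0.23 on the log2 scale (SE, n = 6 per group; adjusted p = 0.0170, limma). Its intensities with bromoxynil were 0.418, 0.297, 0.487, 0.286, 0.277 and 0.248 on arrays 1 to 6, against 0.127, 0.211, 0.192, 0.123, 0.218 and 0.146 with water. The mean was 0.335 ± 0.0947 with bromoxynil and 0.169 ± 0.0427 with water (SD, n = 6 each), and the probe is among the dimmest 25%. The groups did not overlap on the deposited values, as for 25.9% of all probes with bromoxynil above, but did on the normalised ones. At number 5 the normalised log2 difference was -0.03, and the bromoxynil array was higher at 5 of 6 numbers. With each array centred on its median the change was 0.52 and just missed the threshold (adjusted p = 0.0508, limma).

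**Figure D5:**
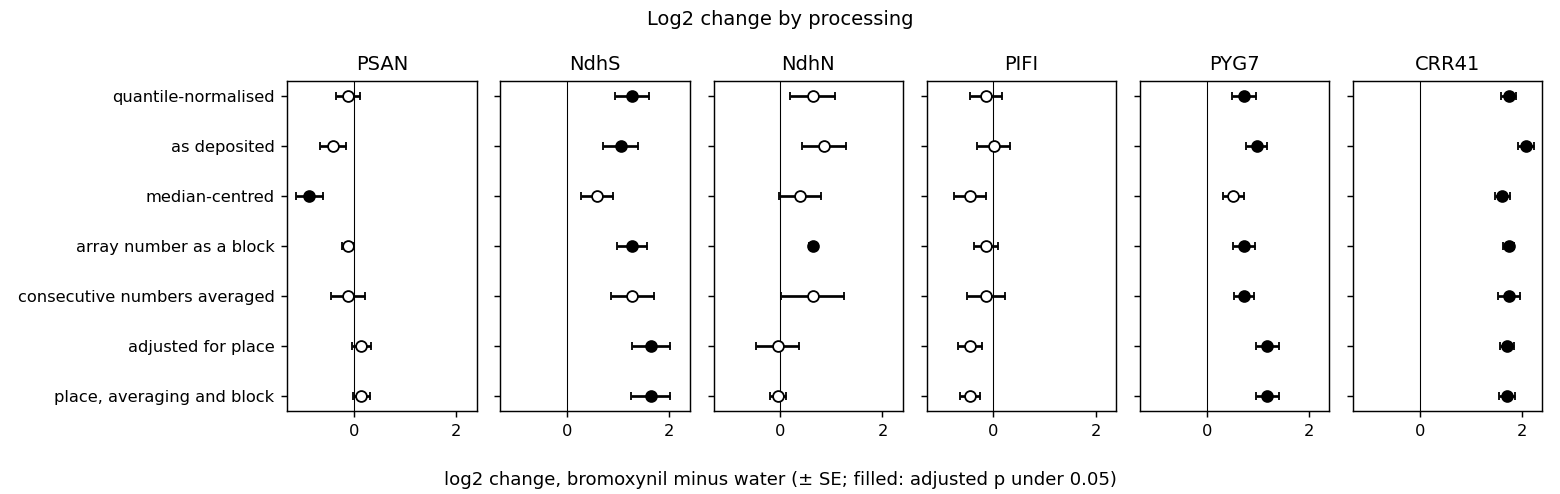
Log2 change (bromoxynil minus water, ± SE) of 4 members and of PYG7 and CRR41 under 7 ways of processing, with filled points where the adjusted p was under 0.05. NdhS is above 0 in all 7 and filled in 5, NdhN is filled with the array number as a block, and PSAN is filled with medians centred.

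The single-gene probes whose pattern was most like that of each bright member were found among 497 other probes above the dimmest 25%, by Pearson correlation of normalised values over the 12 arrays. For PSAN they were AT5G10920 (r = 0.92), AT3G51500 (0.90) and PPDK (AT4G15530, 0.89), the pyruvate phosphate dikinase. The same 3 led when the group means were removed. For NdhS they were AT5G05400 (r = 0.96), AT2G23160 (0.93) and AT5G49590 (0.92), and with group means removed AT5G49590 (0.94), AT5G05400 (0.90) and AT5G49120 (0.90). For NdhN they were AT5G63290 (r = 0.93), LrgB (AT1G32080, 0.91), a plastid transporter of glycolate and glycerate, and AT5G01860 (0.91). With group means removed they were AT3G20490, AT2G29870 and AT5G63290, each at r = 0.95. No member was among the 3 nearest of another member. Same-number arrays deviated together over many probes, and values varied along the probe numbers. These correlations therefore describe the arrays as well as the genes.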

How the data were processed

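Total RNA was measured on 12 arrays. The deposited values are intensities on a linear scale, from the series matrix, and scanner output was not analysed here. The authors' background subtraction, spot handling and scaling between arrays are not given in the sources used here. Array number limits the precision. Members and lists were chosen with earlier results of these data known.

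Of 692 probes with 1 gene in the platform annotation, 690 were matched to a locus through gene identifiers of a RefSeq table (TAIR10.1, names only). Named genes were the 5 members, every measured gene of the lists, and the 3 probes most like each bright member. Each 0 was replaced by that array's smallest positive value, log2 values were quantile-normalised (array medians spanned 0.56), and probes were tested with limma 3.58.1 in R 4.3.3. The fit was checked on simulated data with independent noise on each array. That check leaves out deviations shared between arrays, so it does not bear on the p-values under them. Figures used matplotlib 3.10.9.

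Array numbers come from the titles, which do not say what a number shares. Same-number arrays deviated together, at r = 0.45 to 0.53 over probes above the dimmest 25%. Arrays of different numbers were not compared in this way, so a pairing by number was not tested. The number of independent samples is therefore not known. The main test had no block, and the block was an alternative, printed beside a result where it changed the call. Alternatives were the scaling, a pseudocount of 0.05, a dim filter, the variance model, the replicate block, averaged consecutive numbers, a place adjustment and each array left out. The place adjustment subtracted the median of probes within 6 places in the repeat of 288, then that of each of 12 columns. The repeat was the lag with the highest rank autocorrelation in a difference of water arrays.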

Additional observations from a re-analysis of the deposited data

How the results depend on the processing

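Over all probes, 1872 were called, and 1755 to 1890 with 1 array left out. Averaging consecutive numbers called 1230, and 948 when the place adjustment and replicate block were added, with fewer values per group. The share of higher calls was 45.1%, against 67.0% on the deposited values and 37.7% with medians centred. NdhS was above 0 under all 9 alternatives of processing (0.59 to 1.63) and past the threshold in 7. It did not pass with medians centred (0.59) or with consecutive numbers averaged (1.28, adjusted p = 0.0655, limma), and the cause was not tested. Leaving out 1 array gave 1.11 to 1.45 for NdhS, 0.42 to 0.88 for NdhN, -0.20 to 0.02 for PSAN and -0.32 to 0.02 for PIFI, and it changed none of their calls. PSAN turned to 0.020 without bromoxynil array 4, and PIFI to 0.022 without water array 3. NdhN passed with the replicate block, at 0.63, and at 0.85 on deposited values with the block, an alternative chosen after seeing the data. It turned to -0.049 after the place adjustment, with or without averaging and block. PSAN passed with medians centred (-0.87) and on deposited values with the block (-0.41), and turned to 0.14 after the place adjustment, with or without averaging and block. PIFI was at 0.0020 on the deposited values, with or without the block. The replicate block on normalised values changed no call of PSAN, NdhS, PIFI, PYG7, CRR41 or LHB1B2. Alternatives were not run for CCB3, because it was at 0 on 9 of 12 arrays, and the dim filter removed PIFI and PYG7. LHB1B2 did not pass once adjusted for place, at -0.49. With the pseudocount, PSAN, NdhS, NdhN, PIFI, PYG7, CRR41 and LHB1B2 kept their direction and their call. No measure of signal over background was available, which limits PIFI, PYG7 and CCB3 most.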
